A study of Mus musculus with 12 samples.

Results

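The 6 p53 knockout tumors of the series were divided into 3 tumors with a high level of Ibsp, which encodes bone sialoprotein, and 3 with a low level. Ibsp was 19.26 in tumor 1, 16.22 in tumor 3 and 16.00 in tumor 6 on the deposited log2 scale, and 8.79 in tumor 2, 8.56 in tumor 4 and 9.35 in tumor 5. The dividing level was 12, and the tumors nearest to it were tumor 6 at 16.00 above and tumor 5 at 9.35 below, so no tumor lay close to it. The gene lies at chr5:104299171-104311469 (mm10, plus strand). These values chose the sets, which are called Ibsp-high and Ibsp-low here. They hold 3 tumors each of 12 libraries in all.

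The study profiled RNA from stromal cells sorted from bone marrow, taken from p53 WT mice (WT_MSC, 3 libraries) or p53 KO mice (KO_MSC, 3 libraries), and sarcomas of bone or bone marrow from p53 knockout mice (KO_Tumor, 6 libraries), all freshly isolated. The stromal cells, labelled mesenchymal stem cells, were sorted as CD45-Ter119-CD31-LepR+CD140a+, whereas tumor RNA came from TRIzol extraction with no sort described. The series title places the p53 loss in mesenchyme. The p53 allele, what deleted it, the age and strain of the mice, and whether each library came from its own animal were not given in the sources used here. Both tumor sets therefore share genotype and treatment, and differ by no label. A deposited value of Ibsp RNA is not a record of bone in the tumor, and no histology was used here.

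Osteoblasts, the bone-building cells, arise from mesenchymal precursors under the transcription factors Runx2 and Sp7 (osterix). They lay down a matrix rich in type I collagen, add non-collagenous proteins such as bone sialoprotein and osteocalcin (Bglap), and mineralize it with the help of alkaline phosphatase (Alpl). Osteoblast-lineage cells also make RANKL (Tnfsf11), which drives the formation of osteoclasts, the bone-resorbing cells of the monocyte lineage. Sarcomas whose cells make bone matrix and those whose cells do not are held apart in pathology.

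Values are log2 and were stabilized and adjusted for batch by the authors, so a difference of 1 is 2-fold. A gene is said to separate the sets when all 3 values of one set lay above all 3 of the other and the means differed by at least 1. No p-value is given, because a measured level made the sets, and because 3 against 3 samples could not have reached below 0.1 in a two-sided exact permutation test. Differences are means of the Ibsp-high minus the Ibsp-low tumors, with the standard error over 3 and 3 tumors. The libraries fall into 2 batches by the lowest values that they share. Tumors 1, 2 and 3 are in batch 1 and tumors 4, 5 and 6 in batch 2, so each batch holds tumors of both sets.

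Of 18948 genes compared, 515 (2.72%) separated as higher and 790 (4.17%) as lower in the Ibsp-high tumors. Of those 1305 genes, 756 differed by at least 1 within each batch. The shared direction follows from the lack of overlap, so it is not a replication. Batch 1 holds only tumor 2 of the Ibsp-low set, and batch 2 only tumor 6 of the Ibsp-high set. Over all genes, 424 (2.24%) were higher and 612 (3.23%) lower by at least 1 within both batches, whether or not values overlapped. A difference of 3 or more was seen for 54 of the 515 higher and 75 of the 790 lower genes. The median difference over all genes was -0.08, and the direction of the imbalance depended on scaling. After quantile scaling 664 genes were higher and 678 lower. After centring each tumor on the median gene above the shared lowest values, 681 were higher and 640 lower. The median over all genes was then 0.04. Every count of genes in a list below stands beside these background shares and is a description of 6 tumors.

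**Figure D1:**
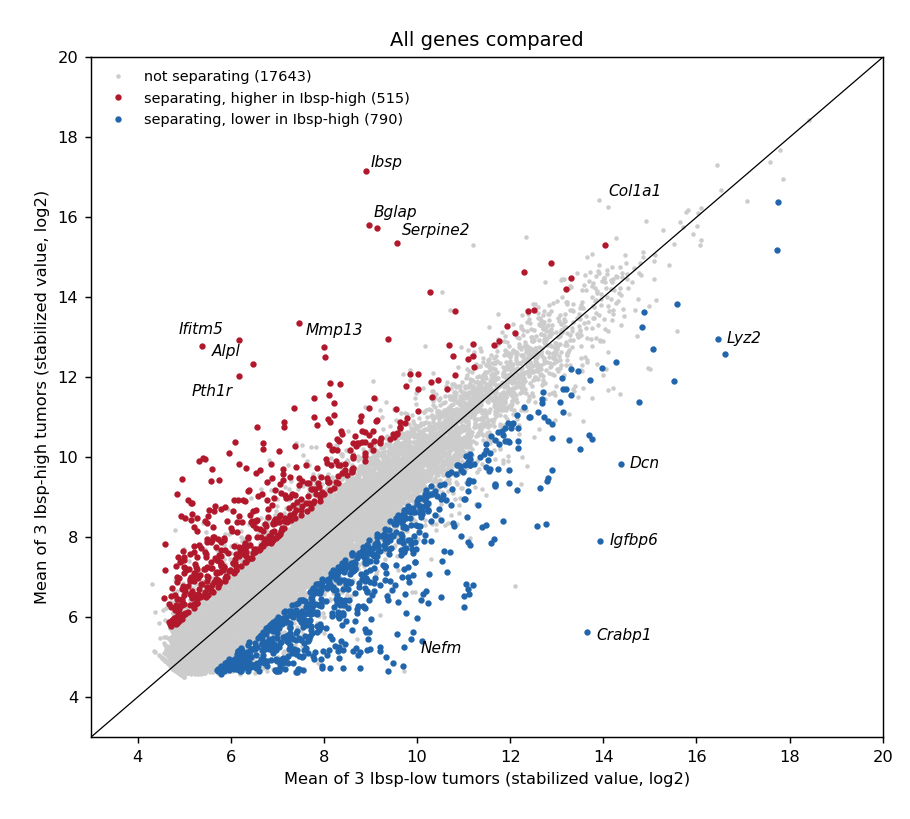
Mean log2 value of each of 18948 genes in the 3 Ibsp-low tumors (horizontal axis) and the 3 Ibsp-high tumors (vertical axis); the line marks equal means. The 515 genes that separated as higher lie above it in red and the 790 that separated as lower lie below it in blue; Ibsp and Crabp1 are the farthest from it among the genes named.

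Trp53, the gene targeted in the knockout, ranged over 7.56, 7.80, 8.72, 9.16, 7.19 and 6.79 in tumors 1 to 6, and the sets overlapped. It was 9.96 to 10.61 in WT_MSC and 10.49, 9.76 and 6.96 in the KO_MSC libraries. A value per gene does not show whether the reads came from the deleted part of Trp53. The median value of the genes compared was 6.68 to 7.08 in the tumors.

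Osteoblast genes were read next, although no label marks any tumor as bone-forming. Since Ibsp, itself a bone gene, made the sets, these genes are not independent evidence of bone formation. The osteocalcin gene Bglap was 16.84, 15.65 and 14.94 in tumors 1, 3 and 6, and 8.51, 7.06 and 11.31 in tumors 2, 4 and 5, a difference of 6.85 ± 1.37 (SE). Its near-identical neighbors shared its pattern, with a difference of 6.58 for Bglap2, and reads may have been divided between them. Bglap3 was 14.22, 13.05 and 11.05 in the Ibsp-high tumors and at its batch's lowest value in all 3 Ibsp-low tumors. Ifitm5, a membrane protein of mineralizing osteoblasts, was 13.43, 11.43 and 13.93 against 5.23, 7.06 and 6.27. Alpl, the phosphatase that frees phosphate for mineral, was 14.89, 10.18 and 11.91 against 4.76, 7.64 and 7.05, with tumor 1 highest. For each of these genes every Ibsp-high tumor lay above every Ibsp-low tumor.

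High Ibsp was not particular to tumors. It was 14.3 to 17.3 in WT_MSC and 12.6 to 15.7 in KO_MSC, so tumors 2, 4 and 5 lay below all sorted stromal libraries and tumor 1 lay above them. Ifitm5 was at most 8.8 in any stromal library, below all 3 Ibsp-high tumors. Bglap in the Ibsp-high tumors also lay above every stromal library, although one KO_MSC library reached 14.8 against 14.94 in tumor 6. The 3 Ibsp-low tumors lay below every WT_MSC library for 257 of the 515 higher genes, and for 17% of all genes compared. For 166 of the 515, all 3 Ibsp-high tumors lay above every stromal library, as they did for 10.6% of all genes compared. The 515 genes were selected as low in one tumor set and high in the other, so nothing is read from these counts. The stromal cells were sorted and the tumors were not, so fewer cells of a type and less RNA per cell cannot be told apart in these comparisons, or between the tumors.

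The bone matrix and mineralization list held 20 genes, all measured, of which 10 separated as higher and none as lower. Its median difference was 2.51, against -0.08 over all genes, and was 3.99 in batch 1 and 2.07 in batch 2. It was 1.38 without tumor 2. The list includes Ibsp itself and was chosen with the division in view. Besides the genes above, Slc36a2, an amino acid transporter, was 8.59, 9.41 and 8.58 in tumors 1, 3 and 6, against 4.97, 5.15 and 5.36. Phospho1, a phosphatase of matrix vesicles, differed by 2.52. All 3 Ibsp-low tumors stood at their batch's lowest value, 4.02 in tumor 2 and 5.48 in tumors 4 and 5, so this difference mixes unequal lowest values. Panx3, a channel-forming protein of osteoblasts, was highest in tumor 6 at 11.83, against 9.11 and 9.01 in tumors 1 and 3 and 4.74 to 6.05 in the Ibsp-low tumors.

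The major collagen of bone did not separate the sets. Col1a1 was 17.63, 17.20 and 14.47 in tumors 1, 3 and 6, and 10.52, 18.41 and 12.82 in tumors 2, 4 and 5. Tumor 4, with the lowest Ibsp, therefore had the highest Col1a1 of the 6. Col1a2 showed the same overlap, with 17.20 in tumor 4 and 15.18 in tumor 6. The difference for Col1a1 was 2.52 ± 2.54, and it was 6.89 within batch 1 and -1.14 within batch 2. Spp1 (osteopontin), which many cell types also make, was highest in tumor 2 at 17.42 and tumor 6 at 17.25, one from each set. Sparc (osteonectin) lay between 14.88 and 18.67 with both sets intermixed. Enpp1 and Ank, which control pyrophosphate, an inhibitor of mineral, overlapped between the sets, with differences of 0.81 and -0.89.

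**Figure D2:**
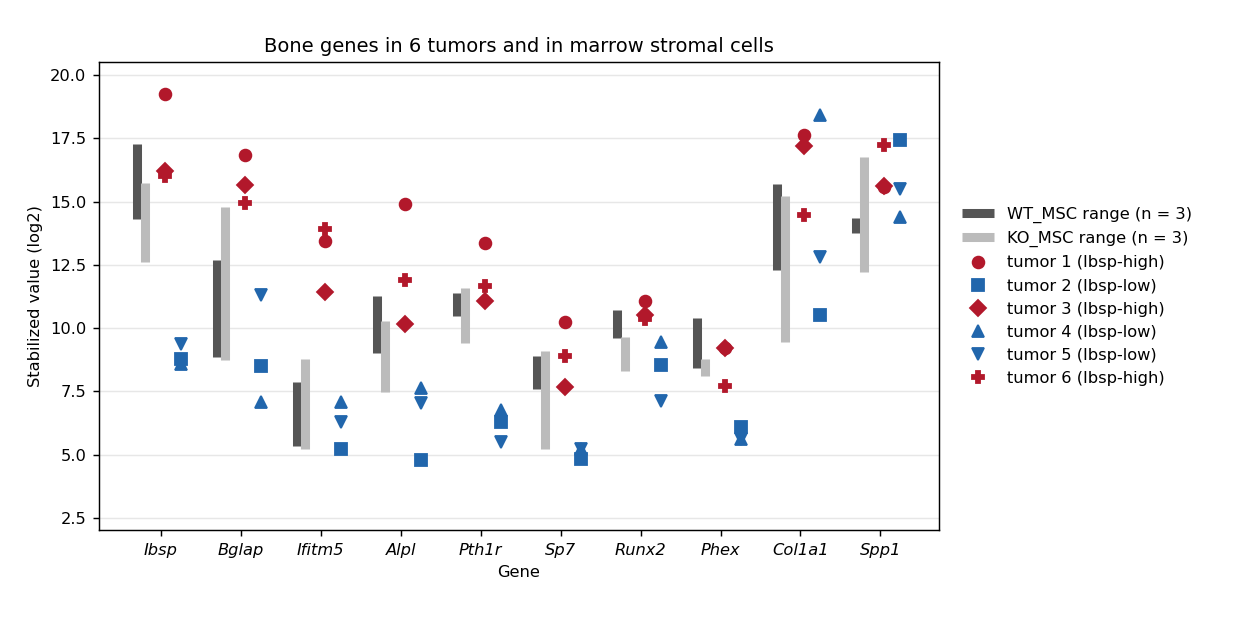
Log2 values of 10 bone genes in the 3 Ibsp-high tumors (red) and 3 Ibsp-low tumors (blue), one symbol per tumor, with the range of the 3 WT_MSC (dark bar) and 3 KO_MSC (light bar) libraries. From Ibsp to Phex the red symbols lie above the blue ones; for Col1a1 tumor 4 is highest at 18.41, and for Spp1 tumor 2 is highest at 17.42.

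Of 10 osteoblast transcription factors, 7 separated as higher, among them Runx2, Sp7, Dlx3 and Dlx5, and none as lower. The median difference of the list was 1.88, and it was 2.37 in batch 1 and 1.27 in batch 2. Sp7, required for osteoblast formation downstream of Runx2, was 10.22, 7.68 and 8.89 in tumors 1, 3 and 6. It was 4.81 in tumor 2 and 5.22 in both tumors 4 and 5, which stood at their batch's lowest value. Runx2 itself was far from the lowest values in all tumors, at 11.08, 10.52 and 10.37 against 8.54, 9.46 and 7.13. Its difference of 2.28 ± 0.71 was smaller than that of Sp7 (3.85 ± 0.75) and of the homeobox factor Dlx5 (3.48 ± 0.33). Atf4, Msx2 and Zfp467 did not separate. Atf4, a stress and amino acid response factor also used by osteoblasts, was highest in Ibsp-low tumor 2 at 11.70.

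The promoters of Bglap, of the collagenase gene Mmp13 and of Crabp1, the gene with the largest difference in the other direction, are shown because both bone regulators and general promoter elements can be looked for in their letters. Each line gives the 250 bases before the RefSeq transcription start in GRCm38.p6, read along the gene's strand. They lie at chr3:88384467-88384716 on the minus strand for Bglap, chr9:7272264-7272513 on the plus strand for Mmp13 and chr9:54764498-54764747 on the plus strand for Crabp1. Capitals mark the RUNX word TGTGGT or its reverse complement in Bglap and Mmp13, the AP-1 word TGANTCA in Mmp13, and the GC box word GGGCGG or its reverse complement in Crabp1.
Bglap: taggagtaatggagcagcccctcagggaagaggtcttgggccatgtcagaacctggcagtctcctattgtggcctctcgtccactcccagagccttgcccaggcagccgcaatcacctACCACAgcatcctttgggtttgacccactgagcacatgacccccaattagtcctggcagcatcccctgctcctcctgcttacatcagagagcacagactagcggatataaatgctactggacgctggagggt
Mmp13: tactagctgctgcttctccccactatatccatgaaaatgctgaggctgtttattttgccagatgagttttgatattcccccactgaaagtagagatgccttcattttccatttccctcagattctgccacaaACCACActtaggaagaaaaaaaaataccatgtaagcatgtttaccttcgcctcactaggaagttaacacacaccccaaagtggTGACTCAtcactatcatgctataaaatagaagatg
Crabp1: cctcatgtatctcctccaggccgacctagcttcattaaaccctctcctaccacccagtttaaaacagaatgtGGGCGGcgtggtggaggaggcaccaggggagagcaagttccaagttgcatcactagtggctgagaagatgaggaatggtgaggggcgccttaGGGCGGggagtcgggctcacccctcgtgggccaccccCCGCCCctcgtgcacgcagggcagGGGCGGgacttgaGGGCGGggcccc

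In Bglap the RUNX word lay on the opposite strand from base -132, counted from the start site, and in Mmp13 on the opposite strand from -118, with the AP-1 word from -35. The Crabp1 window held the GC box word 5 times. The word counts used 300-base windows, which run on for 50 bases past the start, and left out promoters on chr18. The RUNX word on either strand was present in 16.8% of all 32851 promoters kept and 13.6% of those of the genes compared. It was present in 9.27% of promoters of the genes separating as higher and 10.8% of those separating as lower. The AP-1 word was present in 7.81% of all promoters, 6.46% of those of the genes compared, 7.46% for the higher genes and 7.88% for the lower genes. The homeodomain word TAATTA was present in 5.29%, 3.53%, 3.63% and 2.5% of these in the same order. The GC box word was present in 35.7% of all promoters, 53.5% of those of the genes compared, 53.8% for the higher genes and 57.1% for the lower genes. No 2 matches overlapped in the 3 windows shown. A match describes letters in a window and is not a bound site.

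Receptors and ligands of the osteoblast surface had a median difference of 2.94, close to the 2.87 of osteoclast genes, with 7 of 10 genes higher and none lower. It was 2.82 in batch 1 and 2.62 in batch 2. Pth1r, the receptor of parathyroid hormone, was 13.37, 11.07 and 11.66 in tumors 1, 3 and 6 and 6.28, 6.75 and 5.48 in tumors 2, 4 and 5, a difference of 5.86 ± 0.78. The WT_MSC range of 10.5 to 11.4 and the KO_MSC range of 9.4 to 11.6 lay close to the Ibsp-high tumors. RANKL (Tnfsf11) was 8.21, 8.35 and 8.49 against 5.88, 5.26 and 5.30, the tightest of these genes in the Ibsp-high set (SD 0.14). The BMP family ligands Bmp3 and Bmp8a differed by 3.16 ± 0.62 and 3.02 ± 0.56. The LIF receptor (Lifr) differed by 3.13 ± 0.60. Fgfr3 differed by 2.22 ± 0.38, with both batch 2 Ibsp-low tumors at their lowest value. Wif1, a secreted Wnt inhibitor, was 8.07, 9.68 and 10.66 against 5.63, 4.61 and 4.61. The Wnt co-receptors Lrp5 and Lrp6 and the Wnt deacylase Notum did not separate.

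Mmp13, a collagenase of bone and cartilage cells, was 14.60, 13.38 and 12.07 against 7.62, 7.29 and 7.46, and the 3 Ibsp-low tumors differed from each other by little (SD 0.17). Its difference was 5.89 ± 0.74. Serpine2, a protease inhibitor, was 16.61, 16.06 and 13.40 against 9.56, 10.66 and 8.48, and its stromal values ran from 13.4 to 16.6, with tumor 6 just below the lowest of them. Col22a1, a minor collagen, was 9.75, 9.38 and 10.76 against 4.47 in tumor 2 and 5.94 in both tumors 4 and 5. Insc, an adaptor of spindle orientation, was highest in tumor 6 at 12.13, against 9.22 and 8.38 in tumors 1 and 3 and at most 5.81 in the Ibsp-low set. Cd200, an immune inhibitory ligand, differed by 4.49 ± 0.62. Of these 5 genes, Col22a1 and Cd200 lay above every stromal library in all 3 Ibsp-high tumors.

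Among genes with a mean of at least 8 in one set, those whose values most resembled Ibsp over the 6 tumors were Ptprd (r = 0.994), Smad6 (r = 0.993), Mmp13 (r = 0.992), Crot (r = 0.990) and Pth1r (r = 0.981). These were chosen by rank of r over 6 tumors, and each r largely reflects the gap between the sets. Ptprd, a receptor tyrosine phosphatase, was 11.09, 9.92 and 9.30 against 5.53, 5.98 and 6.41. Smad6, an inhibitor of BMP signaling, was 8.59, 7.89 and 7.52 against 5.72, 5.31 and 5.90. Crot, a peroxisomal carnitine acyltransferase, kept the order of the sets but differed by only 0.84, below the minimum for separation.

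Osteocyte genes, which mark osteoblasts buried in bone, were mixed. Of 10, 3 separated as higher (Dmp1, Mepe and Phex) and Pdpn as lower, with a median difference of 0.60. Phex, a regulator of phosphate, was 9.22, 9.22 and 7.71 against 6.09, 5.62 and 5.63. Mepe, a matrix phosphoglycoprotein, was 10.92 in tumor 1 but only 6.77 and 6.79 in tumors 3 and 6, so tumor 1 carried most of its difference of 2.87. Dmp1, which binds mineral, was 9.55, 7.78 and 7.81 against 4.86, 6.53 and 7.34. Sclerostin (Sost), the Wnt inhibitor of mature osteocytes, was between 4.62 and 5.21 in all tumors, and Fgf23 stood at the lowest value of its batch in every tumor. Podoplanin (Pdpn), an early osteocyte marker that fibroblasts also express, was 7.47, 6.0 and 6.27 against 10.08, 9.97 and 10.37.

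Of 15 osteoclast genes, 6 separated as higher (Ocstamp, Dcstamp, Atp6v0d2, Oscar, Car2 and Ostm1), none as lower, and all 15 had a positive difference. The median was 2.87, against -0.08 over all genes, but it was 4.21 in batch 1 and 0.22 in batch 2, and 1.66 without tumor 2. Within batch 2, Ctsk, Mmp9, Nfatc1, Tnfrsf11a and Tcirg1 had differences of -0.02, -0.05, -2.07, -0.85 and -0.08. Acp5, the tartrate-resistant acid phosphatase, was 15.79 and 16.77 in tumors 1 and 3 and 13.32 in tumor 6, and 8.68, 11.18 and 13.75 in tumors 2, 4 and 5. Tumor 5 thus exceeded tumor 6, and the sets overlapped. Atp6v0d2, a proton pump subunit needed for fusion, was 11.00, 12.13 and 10.58 against 5.82, 7.81 and 8.42. Ocstamp, a fusion protein, was 9.97, 10.72 and 8.54 against 4.97, 7.02 and 7.01. Car2, the carbonic anhydrase of osteoclasts, was 11.98, 14.01 and 12.25 against 8.78, 7.97 and 7.27, but was 13.1 to 15.8 in the sorted stromal libraries.

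Cartilage genes were divided. Of 18 measured genes, 5 separated as higher (Col2a1, Col9a1, Col11a1, Col11a2 and Matn3) and 2 as lower (Sox9 and Sox5), with a median difference of 0.52. Col2a1, the main collagen of cartilage, was 12.85 and 10.82 in tumors 1 and 3 but 7.5 in tumor 6, against 4.74, 7.03 and 6.53. Its difference was 7.10 within batch 1 and 0.71 within batch 2. Col11a1, a fibril collagen that bone also contains, was 10.41, 9.66 and 12.20 against 5.26, 8.40 and 7.81. Sox9, the master factor of cartilage, ran the other way, at 7.43, 7.58 and 6.58 against 9.03, 11.18 and 8.98. The cartilage proteoglycan Acan was at most 6.10 in any tumor, Col10a1 of hypertrophic cartilage at most 5.00, and Col9a2 and Epyc were near their lowest values. Comp was high in tumor 1 alone, at 9.48.

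Other stromal collagens did not follow the division. Of 13, 1 gene (Col5a2) separated as higher and none as lower, near the 2.72% and 4.17% over all genes compared. The median difference of the list was 1.60 in batch 1 and -1.67 in batch 2. Col3a1, the collagen of loose connective tissue, was 16.58 in tumor 4 and 14.0 in tumor 5, but 12.01 in tumor 2, within the range of 10.20 to 12.76 of the Ibsp-high tumors. Among 16 collagen-modifying enzymes and chaperones, 3 separated as higher: Serpinh1, Plod2 and P3h4. Serpinh1, the collagen chaperone, was 16.03, 14.62 and 13.93 against 12.73, 12.98 and 12.92. Plod2, the telopeptide lysyl hydroxylase, was 11.57, 11.27 and 11.59 against 8.34, 8.10 and 10.78. Of 16 matricellular proteins and proteoglycans, 2 separated as higher (Tnc and Tnn) and 2 as lower (Dcn and Vcan). Tenascin C (Tnc) was 14.73 in tumor 1, 13.22 in tumor 3 and about 13 in tumor 6, against 9.53, 12.52 and 10.38.

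A second group of genes was high in the Ibsp-low tumors. For 489 of the 790 genes that separated as lower, all 3 Ibsp-low tumors lay above every sorted stromal library, as they did for 10.7% of all genes compared. The 790 genes were selected as high in these same tumors. Crabp1, which binds retinoic acid in the cytoplasm, was 17.33, 13.04 and 10.55 in tumors 2, 4 and 5 and 6.73, 4.52 and 5.65 in tumors 1, 3 and 6, a difference of -8.01 ± 2.08. The gene lies at chr9:54764748-54773110 (mm10, plus strand). Its level varied widely among the Ibsp-low tumors (SD 3.43), and they remained above every Ibsp-high tumor. The highest stromal value was 8.0, in KO_MSC. Igfbp6, a binding protein with preference for IGF2, was 12.89, 14.15 and 14.76 against 7.71, 8.14 and 7.89, a difference of -6.02 ± 0.56, and at most 7.5 in stromal cells.

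Except for Stmn2 and Tubb3, the other genes described here are among the 15 with the largest differences in this direction. The 15 were taken from genes with a mean of at least 8 in the higher set. Growth-associated protein Gap43 and the neurofilament gene Nefm, both best known from neurons, were 10.00 to 12.29 and 9.34 to 10.45 in the Ibsp-low tumors, against 6.13 to 6.49 and 5.10 to 5.66. Of the 10 measured Schwann cell and neural genes, 3 separated as lower (Gap43, Stmn2 and Tubb3), and the list's median difference was -0.25, with 0.34 in batch 1 and -1.04 in batch 2. The AP-1 subunit Fosl1 was 10.69, 10.70 and 7.07 in tumors 2, 4 and 5, against at most 5.13, and the stromelysin gene Mmp3 was 10.66, 13.32 and 9.37 against 4.59, 7.62 and 7.51. Ptges, a prostaglandin E synthase, was 12.36, 10.63 and 10.30 against 6.35 to 7.15. Tnfaip6, which binds hyaluronan, differed by -4.41. Decorin (Dcn) and Efemp1, which encode matrix proteins, were at most 10.74 and 7.36 in the Ibsp-high tumors and at least 13.36 and 9.63 in the Ibsp-low tumors, and both were also high in stromal cells, with WT_MSC at 12.1 to 12.6 for Dcn. Rspo4, an enhancer of Wnt signaling, Tes, a focal adhesion protein, and the phosphatase Acpp differed by -4.72, -4.44 and -4.47. Prl2c2 (-4.92) and Hist2h2aa2 (-4.71) have near-identical copies that may have shared reads.

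**Figure D3:**
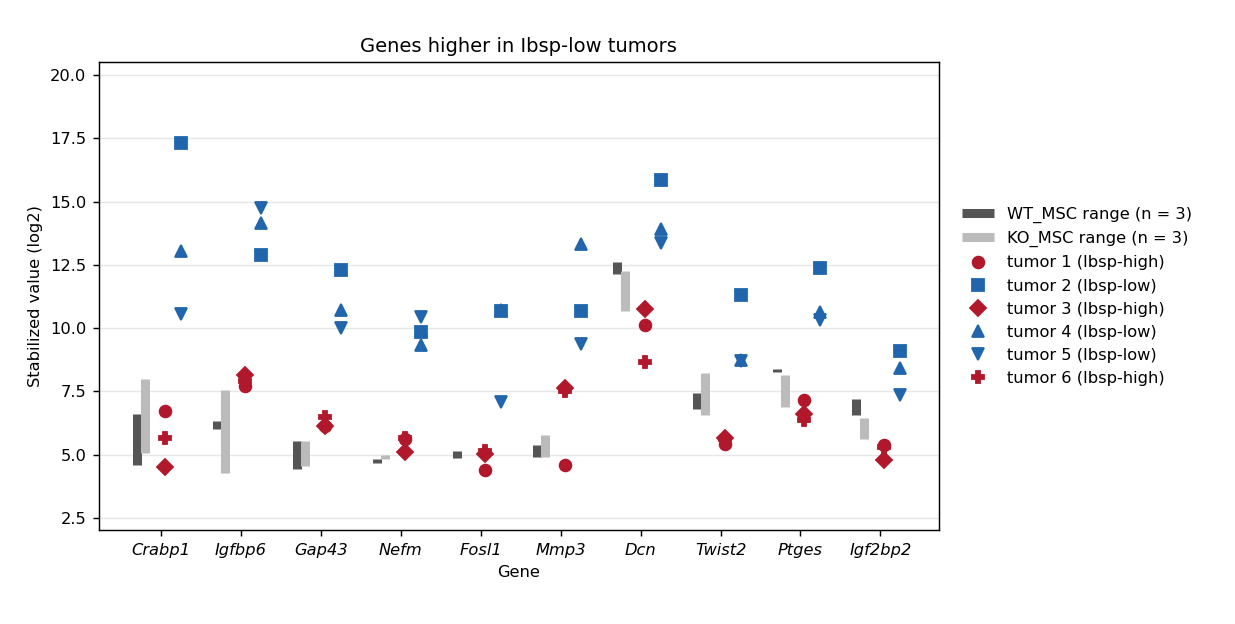
Log2 values of 10 genes that were higher in the 3 Ibsp-low tumors (blue) than in the 3 Ibsp-high tumors (red), one symbol per tumor, with the range of the 3 WT_MSC (dark bar) and 3 KO_MSC (light bar) libraries. Blue symbols lie above red ones for each gene; Crabp1 runs from 10.55 to 17.33 among the Ibsp-low tumors, while the Ibsp-low symbols of Nefm lie within 9.34 to 10.45.

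Crabp1 was not accompanied by most retinoic acid genes. Of 16 measured, 3 separated as lower in the Ibsp-high tumors (Crabp1 and Rxrg among them) and none as higher, with a median difference of -0.64. Rxrg, a retinoid X receptor, was 7.11, 6.88 and 6.29 in tumors 2, 4 and 5 against 5.38, 5.63 and 5.14. Crabp2 was 9.79 and 10.64 in tumors 2 and 4, but 5.73 in tumor 5, no higher than the 5.74 of tumor 6. Aldh1a2, which makes retinoic acid, was 10.51 in tumor 5, 6.54 in tumor 2 and 4.19 in tumor 4. The receptors Rara, Rarb and Rarg, Rxra and the degrading enzymes Cyp26a1 and Cyp26b1 did not separate.

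Growth and signaling genes held a few members that separated in lists that otherwise did not. Among 15 IGF and FGF genes, the RNA-binding proteins Igf2bp2 and Igf2bp3, known from fetal tissue, separated as lower and Fgfr2 as higher. Igf2bp3 was 7.94, 7.56 and 7.35 in tumors 2, 4 and 5 against 5.28, 5.18 and 5.24, and Igf2bp2 was 9.11, 8.43 and 7.34 against 5.39, 4.77 and 5.29. Fgfr2, a receptor of osteoblast precursors, was 11.36, 8.40 and 8.46 against 5.38, 5.99 and 5.38. Of 17 Wnt ligands and antagonists, Dkk1 and Wnt5b separated as higher and Dkk2 and Wnt7b as lower. The inhibitor Dkk1 was 7.0, 8.76 and 11.45 in tumors 1, 3 and 6 against at most 5.05, whereas Dkk2 was 10.29, 9.38 and 10.57 in tumors 2, 4 and 5 against at most 6.93. The related antagonists thus had opposite patterns. Of 18 TGF-beta and BMP genes, the BMP targets Id3 and Smad6 separated as higher and Inhba, which encodes the activin A subunit, as lower. Inhba was 9.44, 10.08 and 8.57 against 6.0, 6.89 and 6.73.

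Among 10 factors and adhesion genes of epithelial-mesenchymal transition, Twist2, Zeb1 and Vim separated as lower and Cdh2 as higher. Twist2, which restrains osteoblast differentiation, was 11.29, 8.72 and 8.70 in tumors 2, 4 and 5 against 5.43, 5.66 and 5.62, and 6.5 to 8.2 in stromal cells. Of 16 genes of LepR+ stromal identity, Foxc1 and Angpt1 separated as higher and Grem1, a BMP antagonist, as lower. Lepr, a gate of the stromal sort, was 8.93, 7.89 and 6.27 against 6.51, 4.38 and 4.10 in the tumors, and at least 11.6 in stromal cells. Of 18 limb and axial position factors, Hoxc8, Hoxc9 and Emx2 separated as lower and Hoxa5 as higher, with differences from -1.74 for Hoxc9 to 1.36 for Hoxa5. Of 12 myogenic regulators and embryonic muscle genes, Cdh15 separated as higher and Chrna1 as lower. The median difference of this list was 0.33, against -0.08 over all genes, with 1.64 in batch 1 and -0.41 in batch 2. The cadherin Cdh15 was 7.71, 7.86 and 8.29 in tumors 1, 3 and 6 against 5.48, 6.55 and 5.18. The muscle acetylcholine receptor subunit Chrna1 was 10.32, 10.53 and 8.61 in tumors 2, 4 and 5 against 5.94, 7.87 and 6.80, although myogenin (Myog) was at most 6.08 in those 3 tumors.

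Proliferation genes did not separate. None of 20 did, where 2.72% of all genes compared separated as higher and 4.17% as lower, so few would be counted in any list of this size. The median difference was -0.24, with -0.55 in batch 1 and 0.42 in batch 2, and 15 of the 20 had a negative difference. Top2a, the replication and mitosis topoisomerase, was 9.51, 8.91 and 9.85 in tumors 1, 3 and 6 and 9.69, 10.55 and 11.23 in tumors 2, 4 and 5. Its sets overlapped. Among 14 p53 pathway and cell cycle genes, Cdkn2a and Ccnd1 separated as lower. Cdkn2a, which encodes the p16 and p19 inhibitors, was 6.95, 6.92 and 8.28 against 10.43, 9.88 and 9.54, and at most 5.2 in any stromal library. Ccnd1, the G1 cyclin, was 11.02, 10.59 and 12.50 against 12.63, 13.50 and 13.08, so that tumor 6 came close to tumor 2. All 6 tumors exceeded the stromal maximum of 7.7 for Ccnd1. Of 12 hypoxia and glycolysis genes, the glucose transporter Slc2a1 and adrenomedullin (Adm) separated as lower, with differences of -1.70 and -1.18, and none separated as higher.

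**Figure D4:**
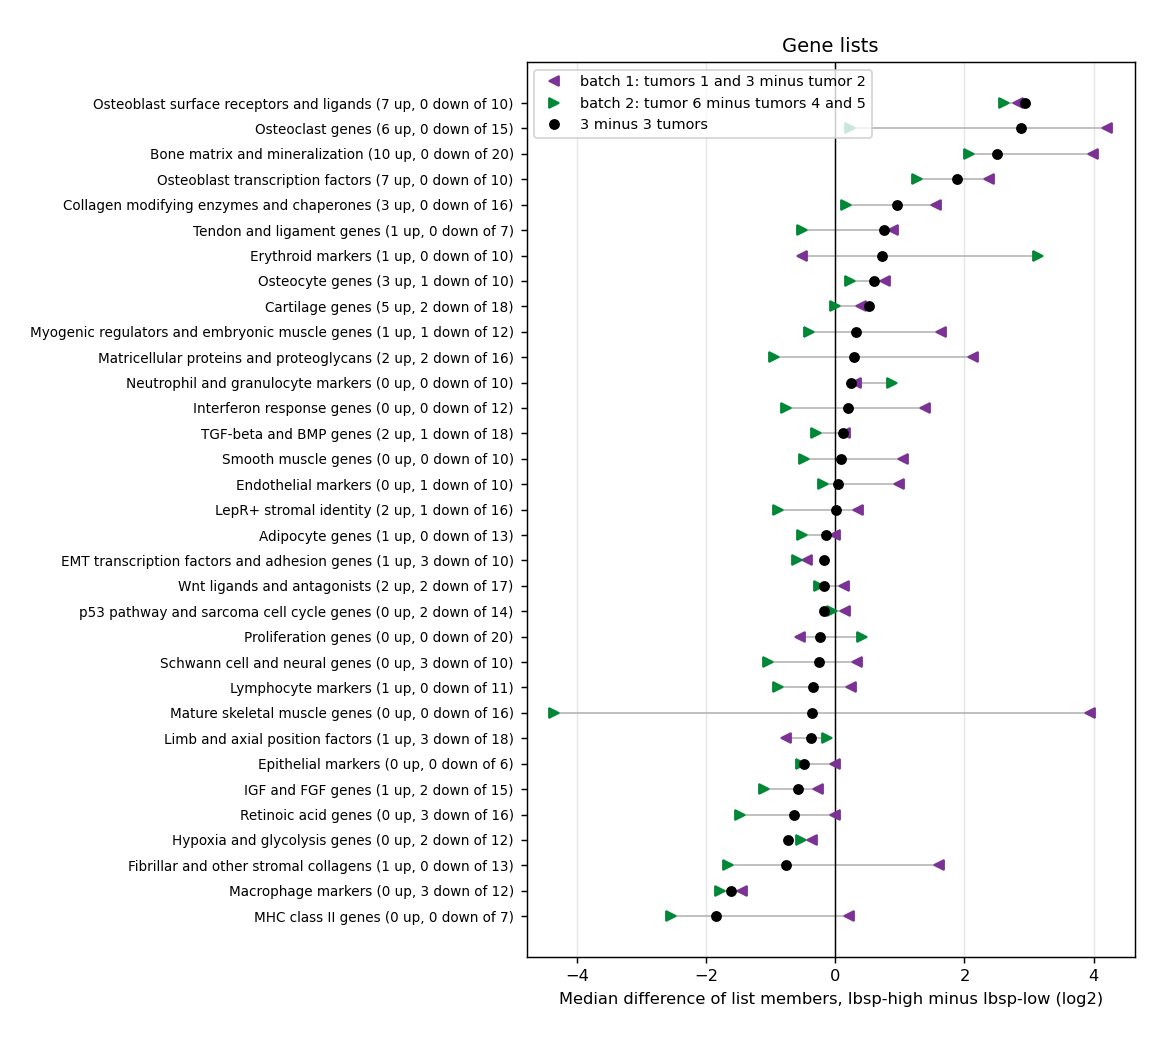
Median difference of each of 33 gene lists between the Ibsp-high and Ibsp-low tumors on the log2 scale (black), with the same median within batch 1 (tumors 1 and 3 minus tumor 2) and within batch 2 (tumor 6 minus tumors 4 and 5). The 3 osteoblast lists lie above 1 in both batches, osteoclast genes are 4.21 and 0.22 in batches 1 and 2, and skeletal muscle genes lie on opposite sides of 0.

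Markers of cells other than the stroma moved unevenly over the tumors. The 12 macrophage markers had a median difference of -1.63, with -1.45 in batch 1 and -1.79 in batch 2, and Lyz2, Mrc1 and Cd14 separated as lower. The log2 of their summed level was 15.3 to 16.7 in the Ibsp-high and 16.5 to 19.7 in the Ibsp-low tumors, so the sets overlapped, and it was 10.0 to 11.2 in stromal cells. The lysozyme gene Lyz2 was 11.18, 13.34 and 14.32 against 15.59, 18.88 and 14.88, and the mannose receptor Mrc1 was 7.91, 6.84 and 8.88 against 10.26, 11.33 and 11.66. None of the 7 MHC class II genes separated, and tumor 4 stood above the other tumors, with Cd74 at 18.94 against at most 13.05. The part of macrophage RNA in the genes higher in Ibsp-low tumors, or of osteoclast RNA in the genes higher in Ibsp-high tumors, was not tested.

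The 16 mature skeletal muscle genes set tumors apart within both sets. Their mean level was 13.58 in tumor 4 and 10.09 in tumor 3, and 5.16 to 8.31 in the others. Skeletal actin (Acta1) was 19.28 in tumor 4, 14.04 in tumor 3 and 6.67 in tumor 2. None separated, and the median difference was 3.95 in batch 1 and -4.36 in batch 2. The part of muscle RNA in other values of tumor 4 was not tested. Erythroid markers were highest in tumor 6, with Hbb-bs at 14.40. Their mean level was 10.80 in tumor 6 and 7.29 to 9.05 in the others, and only Car1 of 10 separated. None of 10 neutrophil markers, 10 smooth muscle genes, 12 interferon response genes or 6 epithelial markers separated. Of 10 endothelial genes 1 separated (Vwf, lower), as did 1 of 11 lymphocyte genes (Cd79a, higher). So did 1 of 13 adipocyte genes (Pparg, higher) and 1 of 7 tendon genes (Mkx, higher). Over all genes compared 2.72% separated as higher and 4.17% as lower, so nothing is read from these single genes. For Cd79a, tumors 4 and 5 stood at their batch's lowest value of 5.13. Its list had a median difference of -0.35, and 7 of its 11 members were negative.

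**Figure D5:**
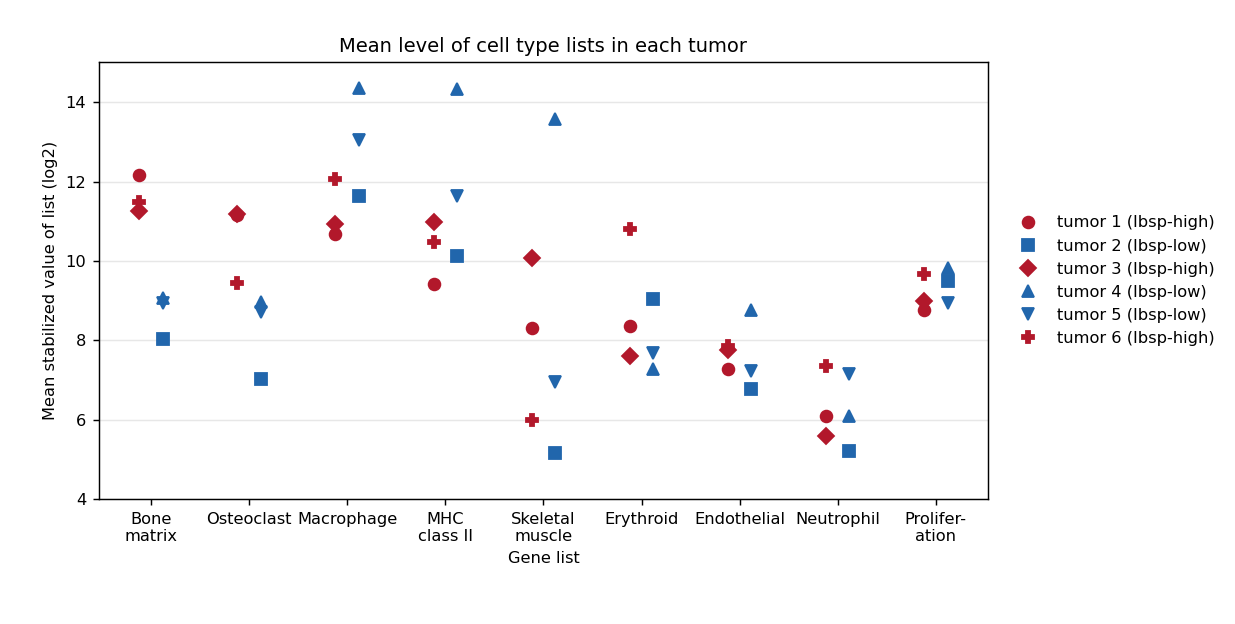
Mean log2 value of the genes of 9 lists in each tumor, with Ibsp-high tumors in red and Ibsp-low tumors in blue. The bone matrix list has all 3 red symbols above the blue ones; the skeletal muscle list is highest in tumor 4 at 13.58, and the erythroid list is highest in tumor 6 at 10.80.

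Across all genes compared, the 3 pairs of Ibsp-high tumors had correlations of 0.949, 0.909 and 0.936, and the 3 pairs of Ibsp-low tumors 0.899, 0.904 and 0.842. Pairs with one tumor of each set ranged from 0.849 to 0.906. The Ibsp-high tumors therefore formed the more similar set, and the Ibsp-low pairs overlapped the mixed pairs. These are correlations across genes in shared tables, and genes are not independent replicates. Tumors 4 and 5 had the most genes of their own, with 225 and 159 genes at least 2 above every other tumor. Tumors 1, 2, 3 and 6 had 35, 11, 6 and 38 such genes.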

How the data were processed

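RNA was measured in 12 libraries made from SMART-Seq v4 cDNA and a library kit without strand information, as the labels' protocols describe. TopHat2 2.0.13, Cufflinks 2.2.1, Cuffdiff and build mm10 are named in the submitters' processing notes. How values were made from reads was not stated in those notes. The authors deposited log2 stabilized, batch-adjusted values, the scale being inferred from the values. In each batch, 9803 genes have a lowest value shared by libraries of that batch, here called the floor. For 1451 genes the value was the same in all libraries (common floor 4.75). The floors of the 2 batches can differ, as for Bglap3 at 2.83 in batch 1 and 6.67 in batch 2. Values near a floor can understate differences within a batch and distort them between batches. The authors also deposited a table of scores for 18949 genes, titled as normalized counts, which equals the rounded stabilized value times 100 over one factor per library (0.978 to 1.02) in 100% of values, within 0.01. Neither table keeps read depth, so no counting interval or count test could be given.

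No test was run. From the log2 table, restricted to the 18948 genes found in both tables, means, SDs, differences and standard errors of 3 against 3 tumors, overlap and within-batch differences were computed with Python 3.11.15, pandas 2.3.3 and numpy 2.4.6; the script was tested on simulated data. Batches were read from shared floors, not from labels. Named genes were the markers, the 15 largest separating differences in each direction at a mean of at least 8 in the higher set, the 4 largest of each list (all members for some bone, cartilage and retinoic acid lists) and the 5 genes most like Ibsp. Genes named to spell out a short count (Dcstamp, Oscar, Ostm1, Tnn, Vcan, Zeb1, Wnt5b, Angpt1, Cd14 and Pparg) were chosen after their values were seen. The members and lists were chosen with earlier results of these data known. Lists held 33 groups, and 428 of 436 genes were measured; some members are counted but not reported here by name. Promoters came from the RefSeq table for GRCm38.p6. Alternatives were 2 scalings, the score table, within-batch values, other minimums and leaving out each tumor.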

Additional observations from a re-analysis of the deposited data

Results flagged for a closer look

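Among 244 results examined for 1 tumor lying far from the other 5 (a gap to the nearest tumor above Dixon's critical share of the whole range), 14 did so, or 5.74%. The rule flags about 1 in 20 by chance for unselected values. Many of the genes examined were named for their gap between the sets, and some lay near the floor. That rate therefore does not apply here, and nothing is read from the share. Tumor 4 was the stray tumor in 9 of the 14. It was highest for Cd44 (11.98), a hyaluronan receptor, Cd74 (18.94), the MHC class II chaperone, the smooth muscle gene Cnn1 (8.08), the keratins Krt18 (6.83) and Krt8 (6.25), Lcn2 (7.55), the replication gene Mcm3 (10.25), the retinol carrier receptor Stra6 (10.16) and Tgfbi (12.59). Tumor 1 was highest for Mepe (10.92) and Comp (9.48) and lowest for Col9a3 (4.58), whose values lay near the floor in all tumors. For Col9a3, tumors 4, 5 and 6 shared the floor of batch 2 at 4.92. Krt19 was highest in tumor 5 (8.13), and Ihh was highest in tumor 6 (5.31), close to its floor.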

How the results depend on the processing

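No paired analysis was possible because no test was run and tumor numbers pair nothing; a difference of at least 1 the same way within both batches, whether or not values overlapped, gave 424 genes higher and 612 lower. A minimum difference of 2 left 152 genes higher and 226 lower, 378 in all. Leaving out 1 tumor makes the condition of no overlap easier to meet, and gave 1635 to 2367 separating genes, 576 to 979 higher and 903 to 1388 lower. The highest total and the highest counts in both directions came without tumor 5; without tumor 4, 886 were higher, without tumor 6, 825 were higher and 1996 separated in all, and without tumor 2, 1333 were lower. The number of lists with a median difference of at least 1 in size was 6, and 7 to 10 when 1 tumor was left out, with 10 without tumor 2. Among the named genes and lists, none that separated or had a median of at least 1 in size changed direction. Of the values of named genes, 2105 moved by less than the spread and 5 moved more, all for Fgf23 and Lect1 at the floor; of list medians, 312 and 18. The osteoblast factor median was 1.57 without tumor 2, that of the LepR+ list 0.92 without tumor 6 (0.01 with all tumors) and that of the neural list 0.32 without tumor 4 (-0.25 with all tumors). Without read depth, a value at the floor shows only that the gene was not detectable.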

Other observations

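Tumor 5 carried a group of genes that were low in the other 5, chosen here after their values were seen by their lead over the next tumor. Tdo2, which degrades tryptophan, was 14.10 in tumor 5 and at most 5.90 elsewhere. The chitinase-like gene Chil4 was 14.18 against at most 6.68, the carbonic anhydrase Car4 15.22 against at most 7.84, and the eosinophil chemokine Ccl11 14.84 against at most 7.96. In tumor 4 the leading genes were Prl2c3 (12.79 against at most 5.76, with reads that near copies may share), Cd74 and the muscle genes Ckm, Atp2a1 and Acta1. Tumor 2 led in Klra4, at 11.29 against at most 5.51, and by less in Crabp1 and in the lysosomal protease Ctsl, at 16.99 against at most 13.82.

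Among the Ibsp-high tumors, tumor 1 led in Eif3j2, at 10.77 against at most 5.42, and in Mia, at 9.61 against at most 4.83. It led by less in Slc39a1, a zinc transporter, at 13.12 against at most 9.72, and in Fhl3, at 10.74 against at most 7.69. Tumor 3 led in Serpina12, at 9.31 against at most 6.44, and by less in the osteoclast protease Ctsk, at 17.77 against 15.69 in tumor 1. Tumor 6 led in Alas2, the erythroid heme enzyme, at 12.14 against at most 7.82, and in Cdo1, cysteine dioxygenase, at 12.62 against at most 8.98.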
